A study of Homo sapiens with 2 samples.

Results

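The 10 genes described here encode subunits of the transcription factor NF-κB and proteins that hold it in check or sit beside it at the receptors: NFKB1, NFKB2, RELB, NFKBIA, NFKBIE, NFKBIZ, TNFAIP3, TNIP1, BIRC3 and TRAF1. They were chosen by symbol, each matched 1 entry, and they make up 10 of the 36601 genes listed in the data. Their levels were compared between untreated and cytokine-treated colon organoids and, within each library, between epithelial cells (EPCAM at least 2 per 10000 UMIs) and mesenchymal cells (COL1A1, COL1A2 and COL3A1 together at least 5 per 10000, EPCAM under 1).

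The organoids were derived from 1383D6, a single established human induced pluripotent stem cell line, and both cultures were taken through the same steps with activin A, FGF2, EGF, forskolin and 5-aza-2'-deoxycytidine. The 3CK culture was then held for 8 days with IFN-γ, TNF-α and IL-1β, cytokines of inflamed mucosa, and the CNT culture was not. Cells were captured with 10x Genomics 3′ chemistry, in which a unique molecular identifier (UMI) counts each captured transcript. Each group is 1 library, so there is no replicate check, no test was made, all 95% intervals cover counting error only, and the cytokines cannot be told apart from other differences between the cultures.

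Filtering of barcodes and of doublets kept 2487 CNT and 1398 3CK barcodes with 101831571 and 91673431 UMIs, and no barcode was shared. The epithelial population held 1660 CNT and 1017 3CK cells (66.7% and 72.7% of kept cells), with median depths of 37785 and 71872 UMIs. The mesenchymal population held 574 and 124 cells (23.1% and 8.87%), with 23450.5 and 65363 UMIs. The remaining 253 and 257 cells met neither definition. EPCAM is part of both definitions, so its difference between the populations was set by them. It stood at 1097 and 960 CPM (UMIs of a gene scaled to all UMIs of the population) in CNT and 3CK epithelial cells. In mesenchymal cells it stood at 20.5 and 17.2 CPM. The keratin KRT18, outside the definitions, did not separate the populations, since mesenchymal cells carried it at 4930 and 6968 CPM. Epithelial cells also carried the hepatic transcript TTR, with 64857 CPM in CNT against 19490 CPM in 3CK, which the label of colon organoids does not describe. Over all kept cells the 14 leukocyte markers summed to 193 CPM in CNT, against 187 in 3CK, and 5 of them were under 1 CPM in each library.

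NF-κB is a family of dimeric transcription factors that rest in the cytoplasm, bound by inhibitors of the IκB family, until receptors for cytokines such as TNF-α and IL-1β lead to the destruction of those inhibitors. Among the genes that NF-κB then switches on are its own subunits, its IκB inhibitors and ubiquitin-editing enzymes that shut the receptor complexes down, so the pathway limits itself. In the intestine this circuit guards the epithelial barrier, and loss of its brakes is known to sensitise the epithelium to inflammation.

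The windows before annotated start sites were searched for the family's recognition sequence. RefSeq start sites on GRCh38.p14 were available for 8 of the 10 members, and the 250 bases before each start were searched on both strands for the κB consensus (3 G, 1 purine, any base, 3 pyrimidines and 2 C). Of 35116 such windows over 27305 genes, 2417 (6.88%) held a match. Among the members 9 of 15 windows did, from 7 of the 8 members, with 12 matches in all, and none of the TRAF1 windows did. A match describes letters and is neither a bound site nor a cause of what follows. The windows of NFKBIA and BIRC3 are printed whole, because their genes had the clearest differences among the IκB inhibitors and among all members, 5′ to 3′ on the gene's strand with the match in capitals. The NFKBIA window is chr14:35404750-35404999 on the minus strand, with its match from 81 to 72 bases before the start. The BIRC3 window is chr11:102317234-102317483 on the plus strand, with its match from 199 to 190 bases before the start.
NFKBIA: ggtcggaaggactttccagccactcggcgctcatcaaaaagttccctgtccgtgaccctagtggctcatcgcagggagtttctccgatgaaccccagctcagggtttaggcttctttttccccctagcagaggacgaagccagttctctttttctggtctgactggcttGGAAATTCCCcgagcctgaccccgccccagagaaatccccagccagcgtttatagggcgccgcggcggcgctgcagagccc
BIRC3: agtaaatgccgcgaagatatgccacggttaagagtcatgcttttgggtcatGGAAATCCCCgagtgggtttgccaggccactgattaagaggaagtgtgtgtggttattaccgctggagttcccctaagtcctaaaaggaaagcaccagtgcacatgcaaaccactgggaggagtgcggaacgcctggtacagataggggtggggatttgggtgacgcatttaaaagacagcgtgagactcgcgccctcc

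Stretches of 30 bases around a match, here the one nearest the start, place the other members beside them and show how the same letters recur. They lie at chr4:102501300-102501329 (NFKB1, plus strand), chr10:102395674-102395703 (NFKB2, plus), chr3:101827757-101827786 (NFKBIZ, plus), chr6:137867194-137867223 (TNFAIP3, plus) and chr5:151081057-151081086 (TNIP1, minus). A gene can have several start sites, and the stretches of NFKB2 and TNIP1 lie wholly, and that of TNFAIP3 partly, inside the gene spans given with their values. Of the 30 bases, 28 for TNIP1, 30 for NFKBIZ, 11 for NFKB2, 10 for TNFAIP3 and 0 for NFKB1 fall in GENCODE v44 exons of any gene on that strand.
NFKB1: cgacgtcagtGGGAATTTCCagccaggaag
NFKB2: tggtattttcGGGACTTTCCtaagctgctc
NFKBIZ: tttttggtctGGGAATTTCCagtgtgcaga
TNFAIP3: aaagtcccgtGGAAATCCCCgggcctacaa
TNIP1: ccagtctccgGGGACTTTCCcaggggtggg
NFKB1 and NFKBIZ carried the identical 10 letters, as did NFKB2 and TNIP1, and TNFAIP3 shared its 10 letters with BIRC3. The consensus of NFKBIA, BIRC3 and TNFAIP3 reads on the other strand, where the letters of NFKBIA equal those of NFKB1.

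All 10 members were higher in 3CK than in CNT, by the least for the subunit genes over all kept cells. The log2 ratio of CPM, 3CK over CNT, ran from 0.59 for NFKB1 to 4.49 for BIRC3 over all kept cells, with a median of 1.17 against -0.05 for the 17523 genes that reached 1 CPM in one library or the other. At least 2-fold higher were 6 members (NFKBIA, NFKBIZ, TNFAIP3, TNIP1, BIRC3 and TRAF1), against 6.95% of all genes tested. At least 4-fold higher were 3 (TNFAIP3, TNIP1 and BIRC3), against 2.87% of all genes, and the same 3 passed 4-fold in epithelial cells (3.38% of genes) and in mesenchymal cells (2.53%). No member was 2-fold lower, against 11.3% of genes over all kept cells, 12.1% in epithelial and 16.7% in mesenchymal cells. In epithelial cells the same 6 members passed 2-fold, against 8.51% of genes. In mesenchymal cells 8 did, against 6.05% of genes, with NFKB1 and NFKBIZ as the exceptions. Among these, the CNT mesenchymal levels of NFKB2, NFKBIE, BIRC3 and TRAF1 carry the limit given with the thinned cells. So do the CNT epithelial levels of TNFAIP3, BIRC3 and TRAF1. The mesenchymal place of RELB (1.05, 0.87 to 1.22) is not firm, since its interval spans 2-fold and the ratio was 0.99 with each cell given equal weight. The member medians were 1.35 and 1.55 in the epithelial and mesenchymal populations, where the medians of all genes were 0.01 and -0.21.

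**Figure D1:**
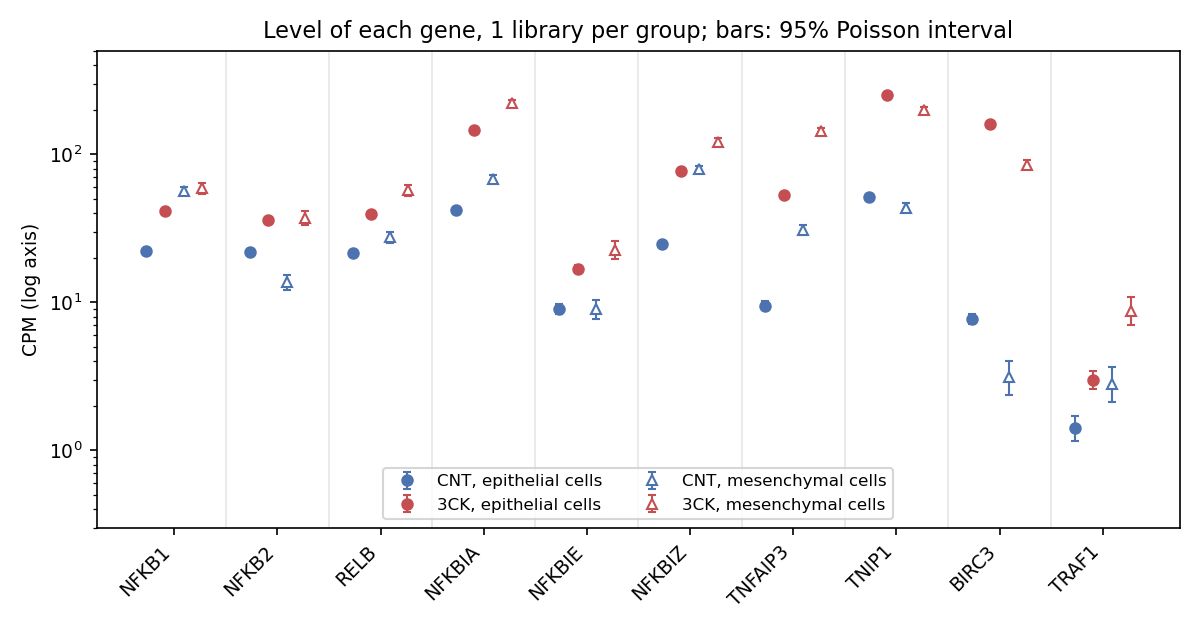
Level of each of the 10 genes in CPM on a log axis, by library (colour) and population (filled circles epithelial, open triangles mesenchymal), with 95% Poisson intervals that cover counting error only. The 3CK point stands above the CNT point for every gene in both populations, by the least for NFKB1 in mesenchymal cells (56.6 and 58.9 CPM) and by the most for BIRC3 (3.10 and 84.8 CPM in mesenchymal cells).

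Over all kept cells the 3 subunit genes had log2 ratios from 0.59 to 0.93, and the smallest of the other members, NFKBIE, had 0.98 with an interval that overlaps that of RELB. Within populations this order did not hold throughout: in mesenchymal cells NFKB2 (1.45) was above NFKBIE (1.33) and NFKBIZ (0.60), and in epithelial cells NFKBIE (0.90) was level with NFKB1 (0.89) and RELB (0.87). NFKB1 (chr4:102501330-102617302) encodes the precursor of a DNA-binding subunit of the canonical dimer. In epithelial cells it stood at 22.2 CPM (21.2 to 23.3) in CNT and 41.3 CPM (39.9 to 42.9) in 3CK, a log2 ratio of 0.89. In mesenchymal cells it was already at 56.6 CPM (53.4 to 60.1) in CNT and was at 58.9 CPM (54.0 to 64.1) in 3CK. The mesenchymal intervals overlap, and that log2 ratio of 0.06 has an interval (-0.09 to 0.21) that includes 0. Under the alternatives this ratio ran from -0.08 with each cell given equal weight to 0.30 with a stricter cell filter, above that interval. It was -0.05 with stricter definitions of the populations, so its sign is not settled.

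NFKB2 (chr10:102394110-102402524) encodes the precursor that is processed in the non-canonical arm of the pathway. It showed the opposite layout, with 13.6 CPM (12.1 to 15.4) in CNT mesenchymal cells, its lowest level, against 37.2 CPM (33.3 to 41.4) in 3CK, a log2 ratio of 1.45 (1.21 to 1.68). In epithelial cells it was at 21.8 CPM in CNT and at 35.7 CPM in 3CK, a log2 ratio of 0.71 (0.62 to 0.80). The CNT populations stood apart, and the intervals of the 3CK populations overlapped. The CNT mesenchymal level carries the limit given with the thinned cells, where its share of cells was under that of an epithelial gene. RELB (chr19:45001461-45038192), the usual partner of the NFKB2 product, was at 21.6 CPM in CNT and at 39.3 CPM in 3CK epithelial cells. Its mesenchymal levels were 27.5 CPM and 56.9 CPM. The log2 ratios, 0.87 and 1.05, have intervals (0.78 to 0.95 and 0.87 to 1.22) that overlap between the populations.

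Of the IκB genes, NFKBIA had the largest ratio. NFKBIA (chr14:35401079-35404749) encodes IκBα, the classical inhibitor that is destroyed and remade in each round of signalling. It stood at 42.2 CPM (40.7 to 43.7) in CNT and 145 CPM (142 to 148) in 3CK epithelial cells. The mesenchymal levels were 68.5 CPM (64.9 to 72.3) and 222 CPM (213 to 232), so mesenchymal cells were higher in both libraries. The log2 ratios were close, at 1.78 (1.73 to 1.84) and 1.70 (1.60 to 1.80).

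NFKBIE (chr6:44258166-44265788) encodes IκBε, a slower inhibitor of the same kind. In CNT its level was 8.97 CPM in epithelial and 8.96 CPM in mesenchymal cells, both with the limit given with the thinned cells. In 3CK the levels were 16.8 CPM (15.8 to 17.7) and 22.5 CPM (19.5 to 25.8), higher than in CNT in both populations and somewhat higher in mesenchymal cells. NFKBIZ (chr3:101827991-101861022) encodes IκBζ, a nuclear member that works with NF-κB on a set of secondary genes. Its transcript differed widely between the populations of CNT, 24.9 CPM (23.8 to 26.0) in epithelial against 79.5 CPM (75.6 to 83.5) in mesenchymal cells. In 3CK these were 76.6 CPM (74.5 to 78.7) and 120 CPM (113 to 128). The interval of the 3CK epithelial level overlaps that of the CNT mesenchymal level, and the log2 ratio was 1.62 in epithelial against 0.60 (0.49 to 0.71) in mesenchymal cells. NFKBIZ overlaps NXPE3 on the same strand in GENCODE v44, so the division of its reads is uncertain.

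The brakes that act on ubiquitin chains differed by more. TNFAIP3 (chr6:137867214-137883314) encodes the ubiquitin-editing enzyme A20, and TNIP1 (chr5:151029945-151093577) encodes its binding partner ABIN1. TNFAIP3 stood at 9.48 CPM (8.80 to 10.2) in CNT and 53.2 CPM (51.5 to 54.9) in 3CK epithelial cells, a 5.61-fold higher level. In mesenchymal cells it stood at 30.7 CPM (28.3 to 33.2) and 143 CPM (135 to 151), 4.66-fold higher and above the epithelial level in each library. The CNT epithelial level of TNFAIP3 carries the limit given with the thinned cells. TNIP1 was arranged the other way, at 51.5 CPM (49.9 to 53.1) and 251 CPM (247 to 254) in epithelial cells. The mesenchymal levels were 43.5 CPM (40.6 to 46.5) and 199 CPM (190 to 209). Both partners therefore stood at a higher level in 3CK in both populations, with log2 ratios between 2.20 and 2.49, but leaned to different cell populations. WAKMAR2 overlaps TNFAIP3 on the opposite strand, and whether the counting used strand is not given in the sources used here.

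The last pair, BIRC3 and TRAF1, encode proteins that meet at the TNF receptor complexes. BIRC3 (chr11:102317484-102339403) encodes cIAP2, a ubiquitin ligase that promotes survival signalling and restrains the non-canonical arm. It had 587 UMIs in CNT epithelial cells (7.71 CPM) and 11155 in 3CK (159 CPM, 156 to 162), 20.7-fold higher. In mesenchymal cells it had 61 UMIs (3.10 CPM, 2.37 to 3.99) and 773 UMIs (84.8 CPM, 78.9 to 91.0), 27.3-fold higher. Its log2 ratios of 4.37 (4.25 to 4.49) and 4.77 (4.39 to 5.17) were the largest of the 10 genes in each population. In 3CK its level was higher in epithelial than in mesenchymal cells. The CNT levels were low, on shares of cells no higher than those of a gene of the other population (given with the thinned cells), so their order between populations is not read as a difference in expression and the folds rest on a low base.

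TRAF1 (chr9:120902393-120929173), an adaptor that joins cIAP proteins to TNF receptors, was scarce. It had 107 UMIs in CNT and 208 in 3CK epithelial cells, or 1.40 CPM (1.15 to 1.70) and 2.97 CPM (2.58 to 3.40). In mesenchymal cells it had 55 and 80 UMIs, or 2.80 CPM (2.11 to 3.64) and 8.78 CPM (6.96 to 10.9). Its epithelial log2 ratio of 1.08 has an interval of 0.74 to 1.43, which spans 2-fold, and was 0.89 with a stricter cell filter. Its place among the 6 epithelial members past 2-fold is therefore not firm. The levels of TRAF1 in both populations of both libraries carry the limit given with the thinned cells.

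**Figure D2:**
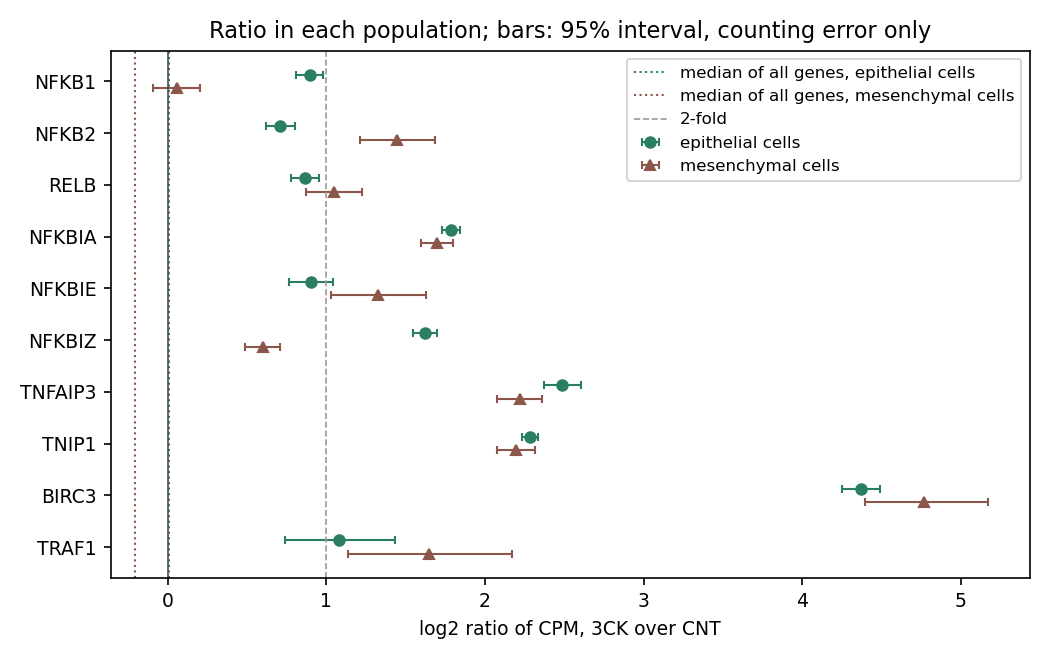
Log2 ratio of CPM, 3CK over CNT, for each gene in epithelial (circles) and mesenchymal (triangles) cells, with 95% intervals for counting error; dashed, 2-fold; dotted, the median of all genes in each population. BIRC3 lies at 4.37 and 4.77, TNFAIP3 and TNIP1 between 2.20 and 2.49, and NFKB1 at 0.06 in mesenchymal cells.

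Cells that met neither definition gave log2 ratios from 0.16 (NFKB1, -0.01 to 0.33) to 5.13 (BIRC3), with a member median of 0.99 against -0.22 for all genes. In them 5 members were at least 2-fold higher (NFKB2, NFKBIA, TNFAIP3, TNIP1 and BIRC3), against 9.18% of genes. BIRC3 had 23 UMIs in CNT and 1681 in 3CK there.

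Other genes of the pathway differed less than the members, with median log2 ratios from 0.08 to 0.63 over 6 lists. The median of all genes was -0.05. Outside the 10 stood 43 subunits, IκB proteins, kinases, adaptors, ubiquitin ligase components and brakes. Of these, 9 were at least 2-fold higher in 3CK over all kept cells, against 6.95% of all genes. None was 2-fold lower, against 11.3% of all genes. RELA, the main activating subunit, stood at 26.1 CPM in CNT and at 40.7 CPM in 3CK, a log2 ratio of 0.64. REL was at 8.38 and 11.6 CPM, a log2 ratio of 0.47. Neither of these 2 remaining subunits passed 2-fold.

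Among 5 other IκB proteins and their regulators 1 passed 2-fold, against 6.95% of all genes. That was BCL3, a nuclear IκB protein that joins NFKB1 and NFKB2 dimers, at 19.2 CPM in CNT and at 48.9 CPM in 3CK, with a log2 ratio of 1.65 in epithelial and 0.47 in mesenchymal cells. NFKBIB, which encodes IκBβ, stood at 24.5 and 26.8 CPM, a log2 ratio of 0.13. The 9 kinase genes had a median log2 ratio of 0.08, and 1 passed 2-fold, against 6.95% of all genes. MAP3K8, which encodes the kinase TPL2 that NFKB1 protein binds, stood at 9.66 CPM and 46.6 CPM. TAB3, an adaptor of the kinase TAK1, had the smallest kinase-list ratio, -0.90, from 22.5 to 12.0 CPM.

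The 12 receptor adaptors had a median of 0.54. IRAK2, an IL-1 receptor kinase at 7.37 and 36.0 CPM, was the only gene of this list past 2-fold, against 6.95% of all genes. TRAF5 had the smallest ratio, 0.03, on 1.48 and 1.52 CPM. In the linear ubiquitin ligase RBCK1, which encodes HOIL-1, was at 67.1 CPM in CNT and at 210 CPM in 3CK, and SHARPIN was at 62.3 and 81.7 CPM. Of 12 other brakes 5 passed 2-fold, against 6.95% of all genes. TNIP3, a relative of TNIP1, had the largest ratio, 5.53, from 0.766 CPM in CNT to 35.5 CPM in 3CK, and COMMD1 had the smallest, -0.36. The other four, named after their values were seen, were the RNase gene ZC3H12A (2.66), the IL-1 receptor brake IRAK3 (1.68), N4BP1 (1.16) and the deubiquitinase gene CYLD (1.03).

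For comparison, 16 target genes outside the pathway had a median log2 ratio of 3.08, above the member median. Of them 12 were at least 2-fold higher and 1 was 2-fold lower, against 6.95% and 11.3% of all genes. ICAM1, an adhesion molecule for leukocytes, was at 15.7 CPM in CNT and at 717 CPM in 3CK. PTX3, a secreted pattern recognition protein, was at 42.5 CPM in CNT and at 9.16 CPM in 3CK. Early stress genes, which dissociation can raise and which share regulators with the pathway, had a median of 0.21 over 13 genes, with ATF3 highest at 1.80 and FOSB lowest at -1.55. Their sum was 573 CPM in CNT and 887 CPM in 3CK epithelial cells, and 1004 and 989 CPM in mesenchymal cells. Their part in the member ratios was not tested.

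Mesenchymal and epithelial cells of the same library were compared next. In CNT, TNFAIP3 (log2 ratio of mesenchymal over epithelial 1.70), NFKBIZ (1.68) and NFKB1 (1.35) were at least 2-fold higher in mesenchymal cells, 3 of 10 members against 26.1% of all genes. BIRC3 was 2-fold lower there (-1.31, on the low CNT levels above), 1 of 10 against 15.1% of genes. These shares are near those of all genes. In 3CK the members at least 2-fold higher in mesenchymal cells were TRAF1 (1.56, 1.17 to 1.94) and TNFAIP3 (1.43, 1.33 to 1.52), 2 of 10 against 19.0% of genes, and none was 2-fold lower, against 16.8% of genes. The TRAF1 ratio rests on 80 mesenchymal and 208 epithelial UMIs. Its shares in both populations carry the limit given with the thinned cells, so this ratio is not read as a difference in expression. No member was 4-fold higher in mesenchymal cells of either library, against 11.2% of genes in CNT and 9.41% in 3CK. The member medians were 0.53 in CNT and 0.52 in 3CK, and the medians of all genes 0.32 and 0.07.

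Between the 2 libraries the population difference narrowed for NFKBIZ (1.68 in CNT and 0.65 in 3CK) and NFKB1 (1.35 and 0.51), and for NFKB2 it went from -0.68 (-0.87 to -0.49) to 0.06 (-0.11 to 0.22). For TNIP1 (-0.24 and -0.33) and NFKBIA (0.70 and 0.61) it differed little. Taken as the mesenchymal minus the epithelial log2 ratio of 3CK over CNT, 1 member, NFKBIZ at -1.02, was past 2-fold in the lower direction, against 15.8% of 15496 genes. None was past it in the higher direction, against 6.20% of genes, where NFKB2 came nearest at 0.74. Scaling matters here. When libraries were scaled by TMM, a trimmed mean of gene ratios, the median of all genes shifted by -0.41 for this population ratio in CNT and by -0.18 in 3CK. The share of higher among all 2-fold genes in CNT went from 63.4% to 46.1%. Under TMM the CNT ratio of NFKB1 was 0.96, no longer past 2-fold, which left 2 members higher, and that of NFKB2 was -1.06, past 2-fold in the lower direction. The 3CK ratio of BIRC3 was -1.08, also past it. The CNT ratio of RELB went from 0.35 to -0.04, and the 3CK ratio of NFKB2 from 0.06 to -0.12.

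Mesenchymal cells of the 2 libraries also differed in other ways that stand beside these values. The 3 collagens of the definition summed to 7863 CPM in CNT against 2902 in 3CK, and TTR was at 1408 and 238 CPM. MALAT1, a nuclear RNA, was at 11072 and 4825 CPM. Leukocyte markers summed to 74.8 CPM in CNT and 224 CPM in 3CK mesenchymal cells. TYROBP (27.1 and 87.9 CPM) and CD68 (26.7 and 91.4 CPM) made up most of that, while PTPRC was at 0.560 and 3.62 CPM, MS4A1 was at 0 in both and CD3E was at 0 in 3CK. Of the 14 markers, 9 in CNT and 8 in 3CK were under 1 CPM. Of the 7 that reached 1 CPM in one library or the other, 5 were at least 2-fold higher in 3CK, against 6.05% of genes. AIF1 had the largest log2 ratio, 3.99. The 1 marker 2-fold lower was CD3D (-2.86), against 16.7% of genes. The 6 endothelial markers summed to 63.0 and 28.6 CPM. Median mitochondrial shares were 3.03% and 3.40%. The part of these differences in the mesenchymal ratios was not tested.

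Within the epithelium the members stood highest where TTR was lowest. Epithelial cells outside the cycling and endocrine ranges were divided into TTR high (at least 500 per 10000 UMIs, 605 CNT and 81 3CK cells), TTR middle (50 to 500, 850 and 623 cells) and TTR low (under 50, 91 and 259 cells). These are ranges of a marker and not cell types. BIRC3 was at 3.65, 11.1 and 24.1 CPM in CNT from TTR high through middle to low, and at 56.8, 148 and 214 CPM in 3CK. TNFAIP3 was at 6.46, 12.2 and 20.3 CPM in CNT and 23.3, 51.5 and 68.7 CPM in 3CK. NFKB1 was at 14.6, 29.0 and 44.4 CPM in CNT and 15.3, 32.3 and 71.5 CPM in 3CK. In each library and for each of the 10 genes, the TTR low cells had the highest of these levels. The intervals of TTR middle and low cells overlapped for NFKB2 (25.1 and 26.1 CPM), NFKBIA, NFKBIE and TNIP1 in CNT and for NFKBIE in 3CK.

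The ratios within these TTR ranges were smaller than in the pooled epithelium for every member, except NFKB2 in TTR low cells (0.72 against 0.71). The libraries filled the ranges differently. NFKB1 had log2 ratios of 0.07 (-0.26 to 0.39), 0.16 (0.03 to 0.28) and 0.69 (0.49 to 0.89) in TTR high, middle and low cells, each under the pooled 0.89. RELB had 0.34, 0.50 and 0.45, under its pooled 0.87. BIRC3 had 3.96, 3.74 and 3.15, under its pooled 4.37 and still more than 4-fold. NFKBIA, at 1.40, 1.49 and 1.62, and TNIP1, at 1.71, 1.97 and 2.11, stayed past 2-fold in each range. TNFAIP3 had 1.85, 2.07 and 1.75, under its pooled 2.49. Among the TTR ranges, TNIP1 thus passed 4-fold only in TTR low cells, and TNFAIP3 only in TTR middle cells. TTR itself was lower in 3CK, so the same range may hold different cells in each library, and a shift of cells between ranges cannot be told apart from a change within cells.

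Cycling epithelial cells (102 CNT and 51 3CK cells) had the largest BIRC3 ratio of the ranges, 5.82 (4.76 to 7.14), on 7 and 455 UMIs, and their TNFAIP3 ratio of 3.13 (2.24 to 4.18) rested on 11 and 111 UMIs. Their TNIP1 ratio was 2.68 (2.36 to 3.01), on 89 and 656 UMIs. The median depths of these cells were 1734 and 5015 UMIs. TRAF1 was too scarce to follow: TTR high cells had 52 UMIs in CNT and 2 in 3CK (log2 ratio -1.92, -5.00 to 0.00), TTR low cells had 17 and 110, and cycling cells had 1 and 2. Non-cycling mesenchymal cells (483 and 101 cells) gave log2 ratios of -0.07 for NFKB1 and 4.86 for BIRC3, within the intervals of the whole mesenchymal population. Their NFKBIZ ratio of 0.33 (0.19 to 0.46) was under the 0.60 of all mesenchymal cells without overlap of the intervals, and their RELB ratio of 0.94 was under 2-fold.

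**Figure D3:**
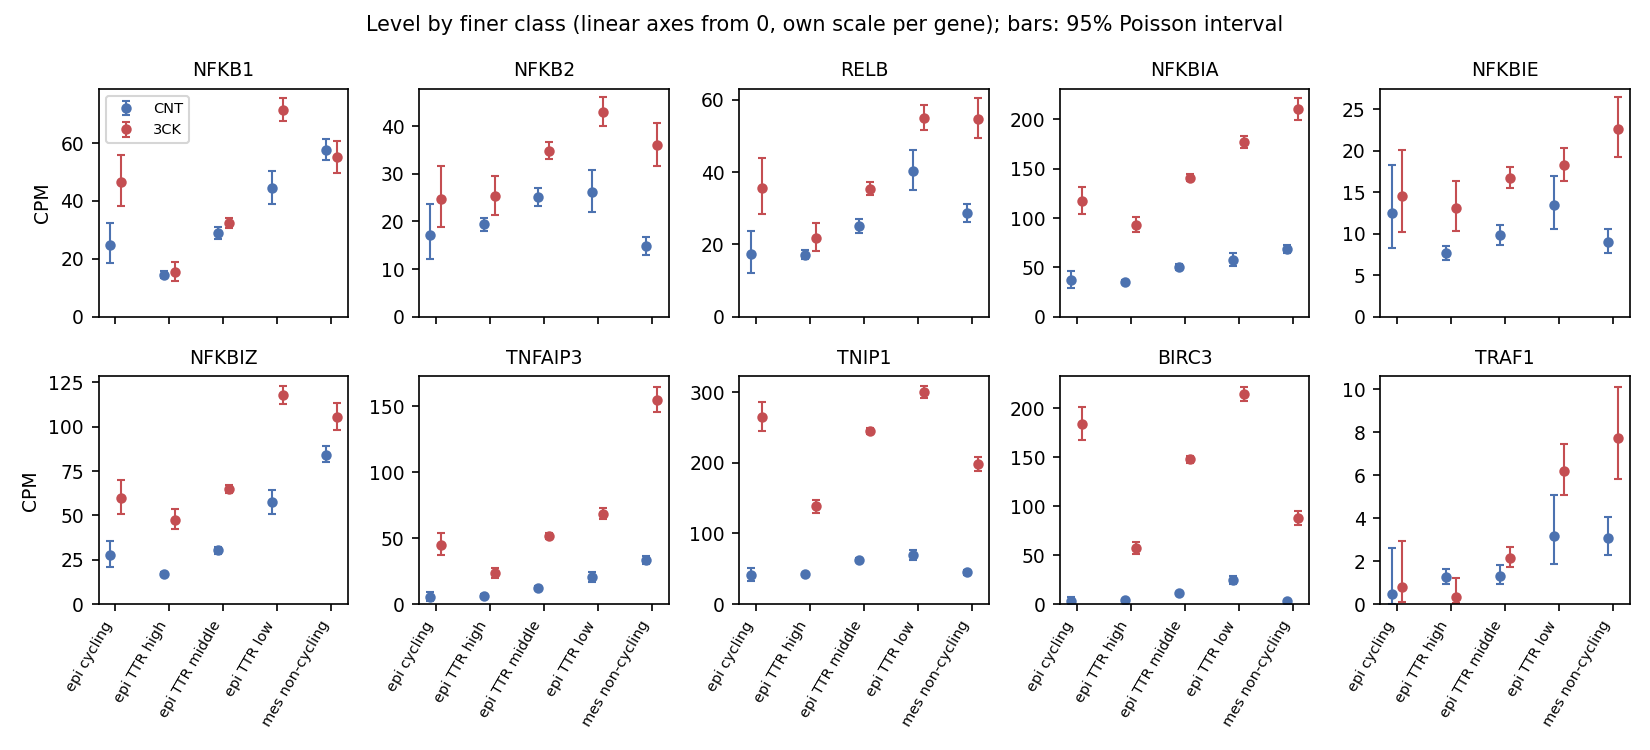
Level of each gene in CPM (own linear scale per gene, from 0) in 5 ranges of cells, CNT blue and 3CK red, with 95% Poisson intervals. For BIRC3 the 3CK points climb from 56.8 CPM in TTR high to 214 CPM in TTR low cells, and for NFKB1 the libraries nearly meet in TTR high cells, at 14.6 and 15.3 CPM.

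Shares of cells with a UMI were compared after thinning each cell to 5000 UMIs, and 943 cells of CNT and 336 of 3CK were too shallow to enter. BIRC3 was seen in 29 of 1062 CNT epithelial cells (2.73%, Clopper-Pearson interval 1.84 to 3.90) and in 322 of 776 3CK cells (41.5%, 38.0 to 45.1). Without thinning these shares were 8.92% and 72.7%, at median depths of 37785 and 71872 UMIs. TNIP1 was the most widely seen, in 22.2% (19.8 to 24.8) of CNT and 60.7% (57.2 to 64.2) of 3CK epithelial cells. NFKBIA was seen in 18.6% and 43.7%. For NFKBIE and TRAF1 the intervals of the libraries overlapped, and for the other members the 3CK share was higher without overlap.

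In mesenchymal cells TNFAIP3 was seen in 10.3% (7.21 to 14.2) of 320 CNT and 47.7% (37.9 to 57.5) of 107 3CK cells. NFKB1 was seen in 26.2% (21.5 to 31.4) and 29.9% (21.4 to 39.5), with overlapping intervals, as in its summed level. BIRC3 was seen in 1.25% (0.342 to 3.17) and 26.2% (18.1 to 35.6). The mesenchymal intervals of the libraries overlapped also for NFKBIE, NFKBIZ and TRAF1. For the members other than these and NFKB1, the 3CK share was higher without overlap. No population lacks the members, so free RNA was read from genes of the other population. The epithelial gene CDH1 was seen in 5.00% of CNT and 4.67% of 3CK mesenchymal cells, and the mesenchymal gene DCN in 8.29% and 3.48% of epithelial cells. TTR was seen in 98.4% and 69.2% of mesenchymal cells. Shares at or under those of DCN or CDH1 in the same cells are not read as expression, which is a caution and not a measure of free RNA. They were those of NFKBIE, TNFAIP3, BIRC3 and TRAF1 in CNT epithelial cells, of NFKB2, NFKBIE, BIRC3 and TRAF1 in CNT mesenchymal cells, and of TRAF1 in both populations of 3CK. Summed levels of these genes in those cells, and ratios formed with them, carry the same limit. The reading depends on the gene taken. LUM, another mesenchymal gene, was seen in 27.4% of CNT and 10.4% of 3CK epithelial cells, and against it all 10 members in CNT and NFKBIE and TRAF1 in 3CK would be at or under background. APOA1, an epithelial gene, was seen in 64.7% and 37.4% of mesenchymal cells, above all 10 members in CNT and above all but NFKBIA, NFKBIZ, TNFAIP3 and TNIP1 in 3CK. LUM and DCN did not keep 1 ratio between the populations, with means of 6.02 and 5.85 UMIs per thinned CNT mesenchymal cell against 0.599 and 0.207 per epithelial cell. BIRC3 was far scarcer, with means of 0.0156 per CNT mesenchymal and 0.0348 per CNT epithelial cell. Free RNA of a gene depends on how much its source cells hold, so the share of an abundant gene cannot decide whether a scarce one is expressed.

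**Figure D4:**
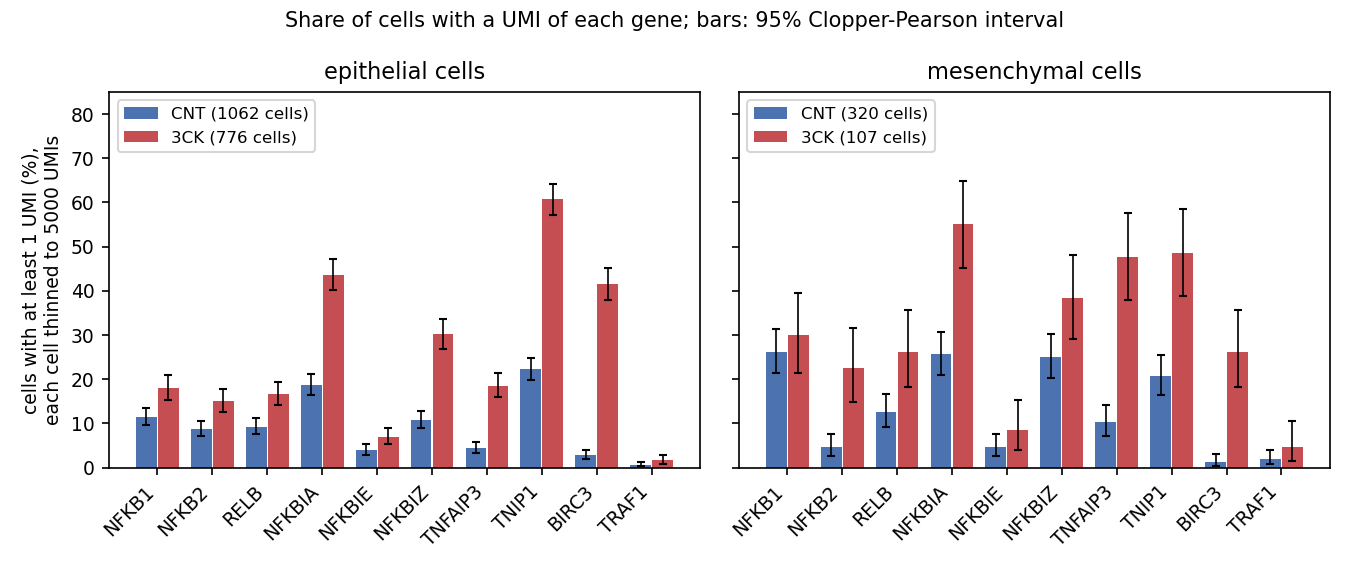
Share of epithelial (left) and mesenchymal (right) cells with at least 1 UMI of each gene after thinning to 5000 UMIs, CNT blue and 3CK red, with 95% Clopper-Pearson intervals. The BIRC3 bars go from 2.73% to 41.5% in epithelial cells, and the NFKB1 bars overlap in mesenchymal cells, at 26.2% and 29.9%.

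The members were also counted per thinned cell. Of the 1062 CNT epithelial cells, 435 (41.0%, 38.0 to 44.0) showed none of the 10 genes, against 60 of 776 (7.73%, 5.95 to 9.84) in 3CK. The mean number seen was 0.928 in CNT and 2.53 in 3CK, and 0.659% and 10.7% of cells showed at least 5. In mesenchymal cells the means were 1.33 and 3.07, and 0.31% of CNT and 22.4% (14.9 to 31.5) of 3CK cells showed at least 5. None was seen in 25.9% of CNT and 6.54% of 3CK mesenchymal cells. Most cells of both populations thus showed at least 1 of the members in each library.

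**Figure D5:**
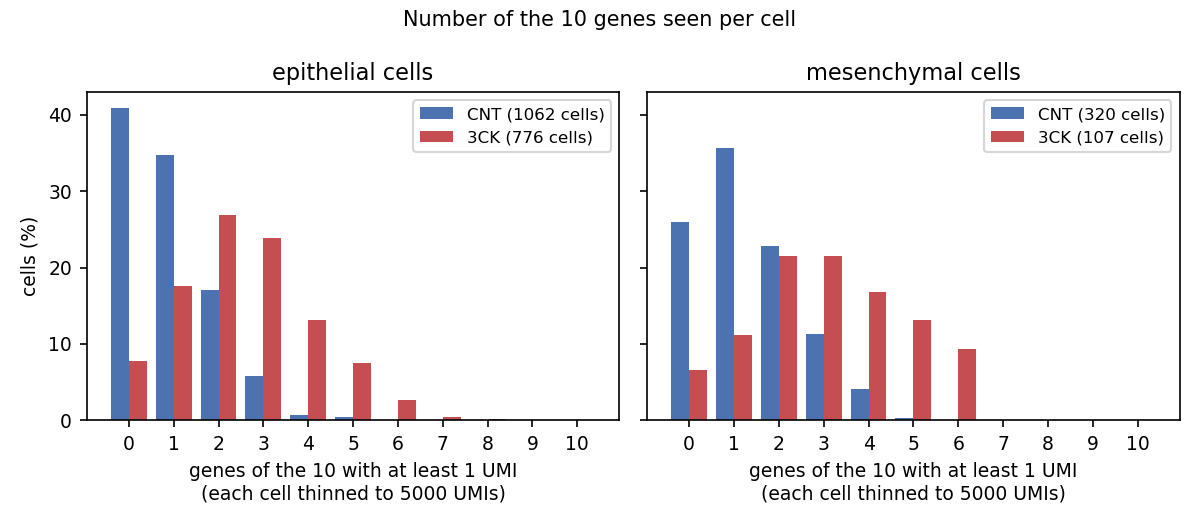
Share of epithelial (left) and mesenchymal (right) cells by how many of the 10 genes had at least 1 UMI after thinning to 5000 UMIs, CNT blue and 3CK red. In CNT epithelial cells the tallest bar is at 0 genes (41.0%), whereas 7.73% of 3CK epithelial cells are there.

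Among the 776 3CK epithelial cells, the 339 with a UMI of NFKBIA also showed TNFAIP3 more often than the 437 without, at 23.3% (18.9 to 28.2) against 14.9% (11.7 to 18.6). For each of the other 8 members the intervals overlapped. BIRC3 was seen in 46.6% (41.2 to 52.1) and 37.5% (33.0 to 42.3), NFKBIZ in 34.8% (29.7 to 40.1) and 26.5% (22.5 to 30.9), NFKB2 in 13.6% and 16.2%, and TNIP1 in 62.5% and 59.3%. In 3CK mesenchymal cells, 59 with and 48 without a UMI of NFKBIA, the intervals overlapped for all 9 other members, with TNFAIP3 at 49.2% and 45.8%. These cells share 1 library and 1 thinned depth, and the figures are a description.

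Over 10 profiles, the 5 ranges of cells in each library, 12481 genes were ranked by the Pearson correlation of log2(CPM + 1) with the mean of the members. The 5 genes outside the members with the highest r were TNFAIP2 (0.969), ZNF205 (0.966), GSAP (0.965), SERPINB8 (0.965) and AC025580.2 (0.965). TNFAIP2, a TNF-induced gene, stood at 11.4 CPM in CNT and at 76.2 CPM in 3CK over all kept cells. GSAP was at 2.47 and 15.2 CPM, and ZNF205 at 13.2 and 21.8 CPM. The profiles share 2 libraries and differ in depth, so the likeness is a description.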

How the data were processed

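Both libraries are the authors' deposited raw UMI counts. Cell Ranger 7.1.0 made the matrices, as the file headers say, on GRCh38 per the submitters' processing notes. The annotation version is not given in the sources used here, and coordinates come from GENCODE v44 (genes) and RefSeq on GRCh38.p14 (start sites). Barcodes with at least 500 genes and at most 20% mitochondrial UMIs were kept. Scrublet (scanpy 1.11.5) scored doublets per library, and the top 0.8% per 1000 barcodes were dropped (52 in CNT, 16 in 3CK). UMIs were summed per population and scaled to CPM by the population's total. Intervals are exact Poisson for sums, Clopper-Pearson for shares and, for ratios, derived from the Clopper-Pearson interval of the 3CK share of both sums. A sum of 0 would be set to 3 UMIs, and no ratio was formed where both sums were 3 or fewer. Endocrine epithelial cells, cycling mesenchymal cells and any range under 50 cells in a library were not compared. The calculation was tested on simulated Poisson counts. These follow the model of the intervals and hold no variation between cells or cultures, so they check the arithmetic only. PCR duplicates are removed by UMI counting, but intervals and floors cover counting error only.

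The members and gene lists were chosen with earlier results of these data known. Named by rule were all members, the largest and smallest ratio of each list, RELA, REL, NFKBIB and BCL3, and the 5 genes most like the mean of the members. Alternatives were no and a stricter cell filter (1000 genes, 10% mitochondrial), no doublet removal and 5%, TMM factors (edgeR 4.0.16), totals without mitochondrial, ribosomal and the 50 most abundant genes, equal weight per cell, barcodes with at least 10000 UMIs, looser and stricter population definitions, 4-fold in place of 2-fold, a minimum of 10 CPM, and thinning to 10000 UMIs or none.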

Additional observations from a re-analysis of the deposited data

Results flagged for a closer look

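Barcodes that the cell filter removed (718 in CNT with 2382469 UMIs, 227 in 3CK with 1404250 UMIs) enter no comparison above, and 7 members were higher in the removed barcodes of 3CK than in those of CNT beyond counting error. Their log2 ratios were 0.63 for NFKB1 (58.3 and 90.4 CPM in CNT and 3CK), 1.61 for NFKB2, 0.90 for RELB, 1.85 for NFKBIA, 2.28 for TNFAIP3, 2.85 for TNIP1 and 4.49 for BIRC3 (15 and 198 UMIs). NFKBIE (1.28), NFKBIZ (0.21) and TRAF1 (-0.24) had intervals that included 0. These barcodes have few genes or a high mitochondrial share, and how far they hold damaged cells or free RNA was not tested.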

How the results depend on the processing

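No paired analysis was possible because each group is 1 library and the labels give no replicate numbers. With 4-fold in place of 2-fold the members higher in 3CK were 3 over all kept cells, 3 in epithelial and 3 in mesenchymal cells, and those higher in mesenchymal than epithelial cells were 0 in CNT and 0 in 3CK. Of 280 alternative values of member ratios between libraries 232 stayed within the counting interval, 46 moved beyond it and 2 changed sign, both NFKB1 in mesenchymal cells (-0.083 with equal weight per cell and -0.054 with stricter definitions). Of 200 alternative values of the mesenchymal over epithelial ratio 162 stayed, 31 moved and 7 changed sign. These were NFKBIE in CNT, at -0.00 in the main setting (0.059 with the stricter cell filter, 0.024 with no doublet removal, 0.0095 at 10000 UMIs or more, 0.17 with looser definitions), RELB in CNT (-0.035 with TMM factors) and NFKB2 in 3CK (-0.12 with TMM factors, -0.11 with equal weight). The cause was not tested. TMM factors took RELB (1.01) and NFKBIE (1.06) past 2-fold over all kept cells, shifted the median of all mesenchymal genes by 0.19 and took the share of higher among their 2-fold genes from 26.6% to 38.8%. Totals without the most abundant genes shifted the medians of all genes by -0.11 over all kept cells, -0.13 in epithelial cells and -0.11 for the population ratio in CNT. Equal weight took RELB in mesenchymal cells to 0.99. Member medians ranged from 1.07 to 1.26 over all kept, 1.24 to 1.38 in epithelial and 1.39 to 1.73 in mesenchymal cells. Depth limits TRAF1 most, with 186 and 379 UMIs in all.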
